A study of Mus musculus with 63 samples.

Results

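Extended pluripotent stem (EPS) cells carrying a control shRNA (shCtrl) were compared with embryonic stem (ES) cells carrying the control of an overexpression construct (oeCtrl), by bulk RNA-seq of total RNA. The members are the 4 libraries with those labels, 2 EPS shCtrl and 2 ES oeCtrl, of 63 samples in the series, of which 22 have a count table. The series as a whole profiled mouse EPS and ES cells, and lines with altered levels of the transcription factor YY1, by expression, chromatin and methylation assays. All 4 libraries are from strain C57BL/6. The EPS cells were grown in LCDM medium and the ES cells in 2i medium, each serum-free, either on mitomycin C-inactivated fibroblast feeders or on Matrigel; the labels do not say which surface a given library had, nor how the constructs were delivered. Cell state, medium and type of control construct differ together between the groups and cannot be told apart. Nothing says whether replicates are separate cultures, so p-values set a group difference against a spread between replicates that may be technical. In the main fit that spread was estimated from all the undifferentiated libraries with a count table, not from these 4 alone.

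LCDM combines LIF, a GSK3 inhibitor and other small molecules, and cells kept in it are described as able to contribute to embryonic and extraembryonic lineages. The 2i medium holds a GSK3 inhibitor and a MEK inhibitor, and MEK is the kinase that activates ERK. ERK signalling drives early response genes together with its own inhibitors of the Sprouty, Spred and dual-specificity phosphatase families. In ES cells, 2i is known for low expression of the de novo DNA methyltransferases and for a naive expression state.

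The 4 libraries held 14540534 to 17005566 counts on genes, so that 3 counts, taken as the floor for a gene at 0, correspond to 0.176 to 0.206 CPM (each library's counts scaled to 1000000 counts on genes), for counting error only. The 8 pluripotency markers summed to 3887 to 4678 CPM in all 4 libraries, with none at 0. The 24 fibroblast markers summed to 65.8 and 39.2 CPM in shCtrl and 24.2 and 19.3 CPM in oeCtrl libraries, against 466 to 1374 CPM in EPS and 3008 to 5541 CPM in ES libraries without a construct. Between 4 and 6 of these 24 genes were at 0, and 15 to 19 were under 1 CPM, in each of the 4 libraries. In bulk RNA, fewer cells of a type and less RNA per cell cannot be told apart. Yy1 itself stood at 134 and 134 CPM in shCtrl and 120 and 124 CPM in oeCtrl libraries, a difference that was not called (log2 0.12 ± 0.11 SE, adjusted p = 0.396).

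The shCtrl libraries stood apart from each other more than the oeCtrl libraries did. Among genes with a mean of at least 5 CPM, 337 of 10405 (3.24%) were at least 2-fold apart between the shCtrl replicates, 290 of them higher in replicate 1, against 14 of 10313 (0.136%) between the oeCtrl replicates. Several Wnt pathway genes, picked out here after their values were seen, were among them. Lef1, a transcription factor that acts with beta-catenin, stood at 3.65 CPM in replicate 1 and 48.6 CPM in replicate 2, and Sp5, a Wnt target, at 7.06 and 68.9 CPM. Xist, the RNA that coats an inactive X chromosome, stood at 25.9 and 4.59 CPM. The plot of replicate against replicate shows these genes off the diagonal in the shCtrl panel. Their levels in the shCtrl libraries are therefore given by library. Lef1 stood at 0.550 and 0.196 CPM in the oeCtrl libraries. Xist was not called in the edgeR fit of 14 libraries. It was called with the replicate block (log2 3.07, adjusted p = 0.0172) and with only the 4 libraries in the fit (log2 3.20, adjusted p = 0.0469). DESeq2 also called it (log2 3.22, adjusted p = 0.00342). Without EPS shCtrl replicate 2 its log2 was 3.94.

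**Figure D1:**
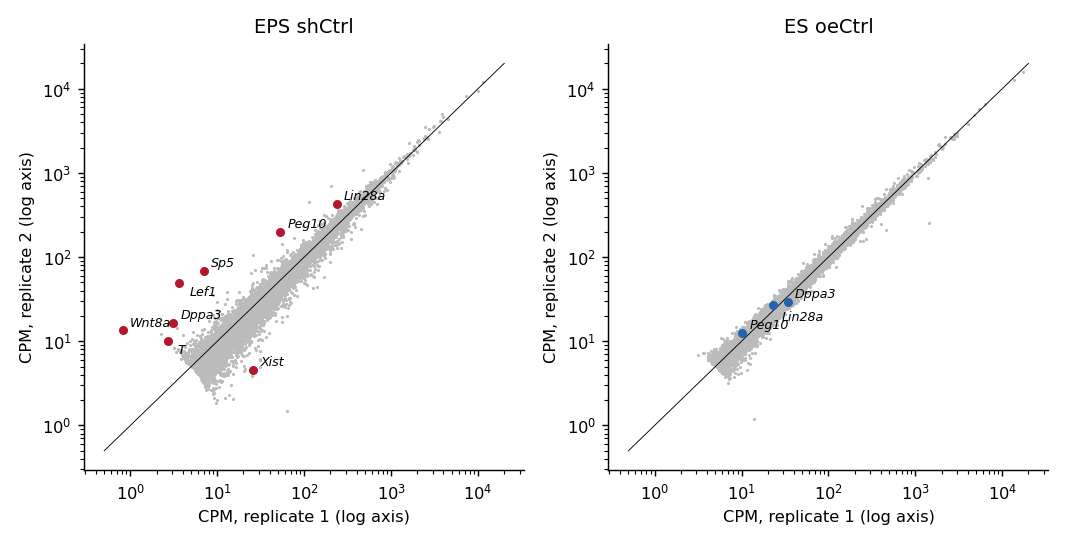
CPM in replicate 1 against replicate 2 (log axes) for genes with a mean of at least 5 CPM, in EPS shCtrl (left) and ES oeCtrl (right); the line marks equal values and coloured points are named genes that reach that level in the group. Lef1 (3.65 and 48.6 CPM) and Sp5 (7.06 and 68.9 CPM) lie far above the line in the shCtrl panel.

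Of 16440 genes tested, 6646 (40.4%) were called at an adjusted p under 0.05, 3244 (19.7%) higher and 3402 (20.7%) lower in EPS shCtrl than in ES oeCtrl libraries. At least 2-fold differences were called for 1753 genes (10.7%) that were higher and 1528 (9.29%) that were lower. The median log2 difference over all genes was 0.01. These shares are the background for the lists below. Without ES oeCtrl replicate 1, 2001 genes were called higher, more than 1.5 times fewer.

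Genes of the ERK response and its feedback were higher in EPS shCtrl cells. Spry4, a Sprouty inhibitor of receptor tyrosine kinase signalling, stood at 97.1 and 94.1 CPM in shCtrl and 1.44 and 1.70 CPM in oeCtrl libraries (log2 5.90 ± 0.31, adjusted p = 8.50e-10). Egr1, a transcription factor gene induced within minutes of stimulation, stood at 29.0 and 27.3 against 2.34 and 2.03 CPM (log2 3.67 ± 0.37, adjusted p = 2.55e-06). The groups did not overlap for either gene; over all genes tested, they were without overlap and higher in shCtrl for 36.8% and lower for 33.8%. Dusp6, a phosphatase that inactivates ERK, stood at 72.2 and 53.5 against 9.22 and 6.93 CPM (log2 2.94 ± 0.18, adjusted p = 3.26e-09). Etv4, an ETS factor induced by FGF signalling, stood at 318 and 300 against 33.9 and 27.8 CPM (log2 3.31 ± 0.17, adjusted p = 6.84e-10). Myc, a growth-promoting transcription factor, stood at 58.4 and 72.4 against 1.17 and 1.11 CPM (log2 5.82 ± 0.27, adjusted p = 2.33e-10). Spred1, another inhibitor of the pathway, rose by 1.67 on the log2 scale. Of the 21 members of this list that were tested, 13 rose and 2 fell, with a median log2 of 1.31 against 0.01 over all genes.

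The de novo DNA methylation machinery was higher in EPS shCtrl cells. Dnmt3a, which adds methyl groups to unmethylated sites, stood at 222 and 231 CPM in shCtrl and 13.3 and 13.8 CPM in oeCtrl libraries (log2 4.05 ± 0.18, adjusted p = 1.54e-10). Its catalytically inactive partner Dnmt3l stood at 46.0 and 67.3 against 2.54 and 2.68 CPM (log2 4.42 ± 0.34, adjusted p = 1.52e-07). Dnmt3b, the other de novo enzyme, stood at 179 and 310 against 38.9 and 39.5 CPM (log2 2.63 ± 0.27, adjusted p = 4.22e-06). The groups did not overlap for these 3 genes, although the shCtrl replicates were well apart for Dnmt3b. Zfp57, which protects methylation at imprinted regions, rose by 1.06, and Tet2, which oxidises methylcytosine, rose by 1.51 (320 and 209 against 76.3 and 105 CPM). Dppa3, which limits maintenance methylation, stood at 3.09 and 16.6 against 33.9 and 29.6 CPM (log2 -1.67 ± 0.49, adjusted p = 0.0201); this call was lost with only the 4 libraries in the fit (adjusted p = 0.162), with no filter on low counts (adjusted p = 0.0733), with the replicate block (adjusted p = 0.0513), and without ES oeCtrl replicate 1 (adjusted p = 0.0880) or 2 (adjusted p = 0.0616). Of 18 tested members, 9 rose and 3 fell, with a median log2 of 0.42.

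Among core pluripotency factors, the RNA-binding let-7 inhibitors rose and Nanog fell. Lin28a stood at 236 and 429 CPM in shCtrl and 23.0 and 27.2 CPM in oeCtrl libraries (log2 3.72 ± 0.24, adjusted p = 1.27e-08), and Lin28b rose by 2.82. Dppa2, a chromatin factor of early embryos, stood at 169 and 173 against 32.3 and 32.8 CPM (log2 2.38 ± 0.13, adjusted p = 6.84e-10). Nanog, a central pluripotency transcription factor, stood at 580 and 517 against 964 and 997 CPM (log2 -0.86 ± 0.12, adjusted p = 3.91e-05). Pou5f1, which encodes OCT4, rose by 0.75 (280 and 260 against 163 and 153 CPM). Its partner Sox2 overlapped between the groups, at 394 and 331 against 394 and 347 CPM (log2 -0.05 ± 0.11, adjusted p = 0.739). Of 15 core members, 10 rose and 2 fell (median log2 0.75). The naive factors moved both ways, with 6 of 19 higher and 8 lower (median log2 -0.16). Gbx2, a homeobox factor, rose by 4.00 and Klf4 by 0.90, while Prdm14, Fgf4 and the AKT coactivator Tcl1 had log2 values of -0.92, -1.22 and -1.64.

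**Figure D2:**
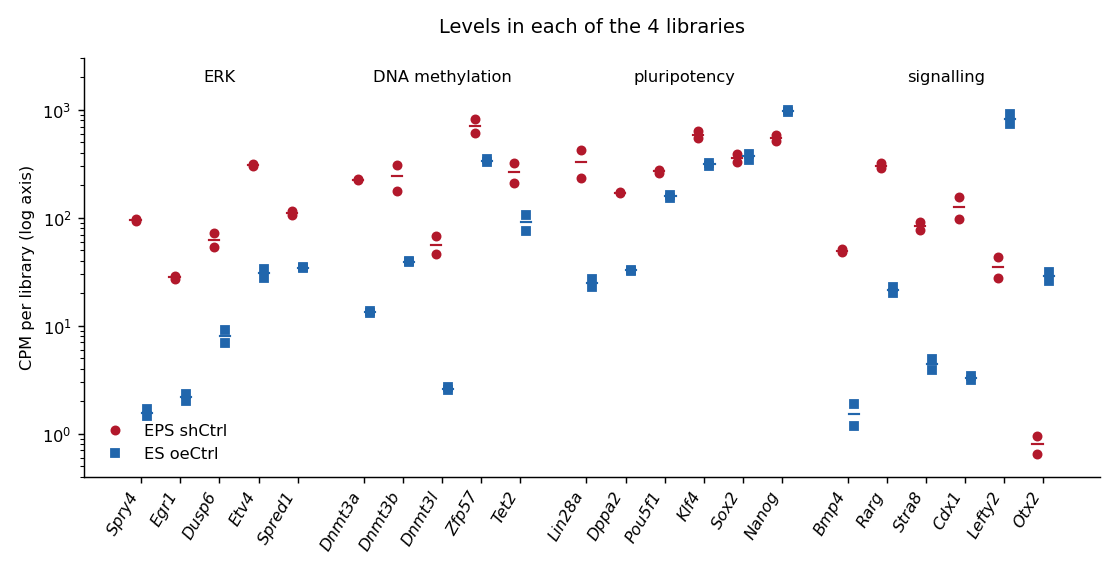
CPM in each of the 4 libraries (log axis), with EPS shCtrl as red circles and ES oeCtrl as blue squares; short lines are group means of 2 libraries. Levels are not scaled by length, so only the groups of 1 gene can be compared; Sox2 is the gene whose groups overlap, and Nanog, Lefty2 and Otx2 are lower in EPS shCtrl.

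Of 21 tested genes of the formative and primed epiblast, the states that follow the naive state, 15 rose and 2 fell, with the median log2 at 2.02. Tcf15, a factor of early lineage priming, stood at 64.1 and 78.3 CPM in shCtrl and 1.79 and 1.76 CPM in oeCtrl libraries (log2 5.31 ± 0.32, adjusted p = 2.90e-09). Otx2, a transcription factor of the formative epiblast, went the other way, at 0.945 and 0.647 against 31.6 and 25.8 CPM (log2 -5.18 ± 0.32, adjusted p = 2.90e-09). Lef1 was called higher (log2 6.14 ± 1.31, adjusted p = 0.00459), and was not called with only the 4 libraries in the fit (adjusted p = 0.0989) or without ES oeCtrl replicate 2 (adjusted p = 0.0508). Dnmt3a, Dnmt3b, Myc and Etv4 are also members of this list.

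Germline genes that are known to be silenced by promoter methylation in somatic cells were mostly higher in EPS shCtrl cells. Some of their promoters are shown because more members were called higher than lower and they often share an E-box, the letters CACGTG. Each window is from the RefSeq promoter table (GRCm38.p6), read 5′ to 3′ on the strand of the gene and upstream of its start, with the E-box in capitals. Mael, Ddx4, Tdrd1 and Brdt were called higher and Fkbp6 lower; Tdrd1 and Brdt were chosen after their values were seen.
Mael (chr1:166238935-166238994, minus strand): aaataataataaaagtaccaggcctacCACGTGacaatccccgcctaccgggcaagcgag
Ddx4 (chr13:112652311-112652366, minus strand): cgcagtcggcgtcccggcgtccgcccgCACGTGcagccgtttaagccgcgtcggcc
Tdrd1 (chr19:56826171-56826208, plus strand): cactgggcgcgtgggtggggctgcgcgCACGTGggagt
Brdt (chr5:107331089-107331148, plus strand): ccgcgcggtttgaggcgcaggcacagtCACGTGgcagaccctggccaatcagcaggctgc
Fkbp6 (chr5:135350113-135350172, minus strand): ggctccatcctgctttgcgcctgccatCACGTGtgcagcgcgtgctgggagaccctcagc

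CACGTG is its own reverse complement, so both strands were searched at once, from 250 bases before to 50 after the start. It was present in 14 of the 28 germline promoters in the table (50.0%) and in 1141 of the 11279 promoters of tested genes (10.1%). Among germline members it was in 9 of the 15 called higher, 2 of the 4 called lower and 3 of the 9 not called. Sycp1, Tdrd9 and Taf9b, which carry it and were not called, are not shown. Hormad1, which carries it and was called lower (log2 -0.78), and other carriers called higher are also not shown. Among all genes it was in 10.8% of those called higher and 9.84% of those called lower. A match is a description of these letters, not of binding.

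Mael, which acts in transposon silencing, stood at 17.8 and 10.4 CPM in shCtrl and 0.413 and 0.523 CPM in oeCtrl libraries (log2 4.86 ± 0.45, adjusted p = 2.81e-07). Ddx4, a germ cell RNA helicase, stood at 42.1 and 33.5 against 7.01 and 5.62 CPM (log2 2.56 ± 0.22, adjusted p = 1.46e-07). Stra8, which is induced by retinoic acid at entry into meiosis, stood at 90.7 and 77.7 against 3.92 and 4.97 CPM (log2 4.22 ± 0.26, adjusted p = 3.28e-09). All these groups were without overlap. Piwil2, a partner of piRNAs, rose by 2.84. Fkbp6, also of the piRNA pathway, stood at 2.96 and 2.88 against 35.2 and 26.6 CPM (log2 -3.42 ± 0.21, adjusted p = 3.30e-09). In all, 17 of 30 germline members rose and 4 fell, with a median log2 of 0.95.

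Genes of the 2-cell embryo were at low levels, and the Zscan4 cluster was higher in EPS shCtrl libraries. Zscan4c, a marker of the 2-cell-like state, stood at 3.53 and 1.82 CPM in shCtrl libraries and was at 0 in both oeCtrl libraries, at least 13.3-fold higher against the floor of 3 counts per library. Zscan4d (2.20 and 2.18 CPM) was likewise at least 10.9-fold higher. The tables hold 15 of the listed genes, of which 8 passed the filter on low counts. Most of these were at or near 0 in the oeCtrl libraries and in the EPS and ES libraries without a construct, and so passed it largely through the shCtrl libraries, which fixes the direction; no count of calls is read from this list. The Zscan4 genes are near-identical copies, and reads could be split among them in the counting.

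Among retinoic acid genes more rose than fell, and 1 synthesis enzyme was lower. Rarg, a retinoic acid receptor, stood at 290 and 320 CPM in shCtrl and 23.0 and 20.0 CPM in oeCtrl libraries (log2 3.81 ± 0.20, adjusted p = 6.41e-10). Aldh1a3, which makes retinoic acid, stood at 0.315 and 0 against 21.1 and 20.8 CPM (log2 -7.05 ± 0.46, adjusted p = 4.70e-09). Of 16 tested members 8 rose and 1 fell, with a median log2 of 1.08. In the lines without a construct the list median was -0.25, with 4 members called higher and 3 lower in EPS than in ES cells. The difference between the pairs of lines was called for 10 members, 9 more positive and 1 more negative here. Over all genes tested it was positive for 9.75% and negative for 10.4%. Stra8, also in this list, was not called in the lines without a construct (log2 0.74, adjusted p = 0.391). Rarb, a receptor gene known as a retinoic acid target and named here after its values were seen, held 34 and 45 counts in shCtrl and 0 and 1 in oeCtrl libraries, 71.7-fold more relative to the library totals (95% exact counting interval 12.5 to 2867). That interval covers counting error only, not the spread between libraries. The Rarb promoter is shown because it carries a direct repeat of retinoid half-sites with 5 bases between, in capitals. The repeat was found in 2 of 12 promoters of this list (Rarb and Cyp26a1) and in 5 of 11279 of all tested genes (0.0443%). Among all genes called higher it was in 1 of 2290 (0.0437%). Cyp26a1 was not called (log2 0.91, adjusted p = 0.297). A match describes these letters, not binding, and its part in the rise of Rarb was not tested.
Rarb (chr14:16575486-16575556, minus strand): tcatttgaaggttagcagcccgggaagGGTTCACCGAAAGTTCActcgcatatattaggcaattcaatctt

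In the Nodal pathway more genes fell than rose, and BMP genes moved both ways. Lefty2, a secreted inhibitor of Nodal, stood at 27.7 and 43.0 CPM in shCtrl and 742 and 908 CPM in oeCtrl libraries (log2 -4.55 ± 0.42, adjusted p = 9.51e-06). Smad3, a signal transducer, fell by 1.66, and the ligand Nodal itself by 1.03. Inhbb, which encodes an activin subunit, rose by 3.76. Here 2 of 16 members rose and 6 fell (median log2 -0.31, or -0.18 with a gene at 0 in a group set to its bound). Bmp4, a BMP ligand, stood at 51.3 and 47.8 against 1.17 and 1.90 CPM (log2 4.98 ± 0.30, adjusted p = 2.57e-09), and Id3, a target of BMP signalling, rose by 4.51. Of 20 BMP and Id genes 6 rose and 6 fell.

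Genes of LIF and STAT3 signalling, which sustains mouse pluripotency, were lower by modest amounts. None of 15 rose and 10 fell, with a median log2 of -0.49. Stat3 stood at 159 and 152 CPM in shCtrl and 239 and 242 CPM in oeCtrl libraries (log2 -0.65 ± 0.11, adjusted p = 2.70e-04). Lif, the ligand, fell by 1.22 and Jak2, a kinase of the receptor, by 0.81.

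Of 22 Wnt targets and regulators 9 rose and 2 fell (median log2 0.57, or 0.49 with genes at 0 in a group set to their bounds). With only the 4 libraries in the fit, 4 members were called higher. Cdx1, a homeobox target of Wnt and retinoic acid, stood at 97.2 and 158 CPM in shCtrl and 3.44 and 3.14 CPM in oeCtrl libraries (log2 5.27 ± 0.33, adjusted p = 1.07e-08). In the lines without a construct Cdx1 was lower in EPS than in ES cells (log2 -1.45, adjusted p = 0.00424). Axin2, a feedback inhibitor, rose by 1.12 and Sfrp1, a secreted antagonist, fell by 2.20. The Wnt genes Lef1 and Sp5 are among those at very different levels in the shCtrl replicates.

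**Figure D3:**
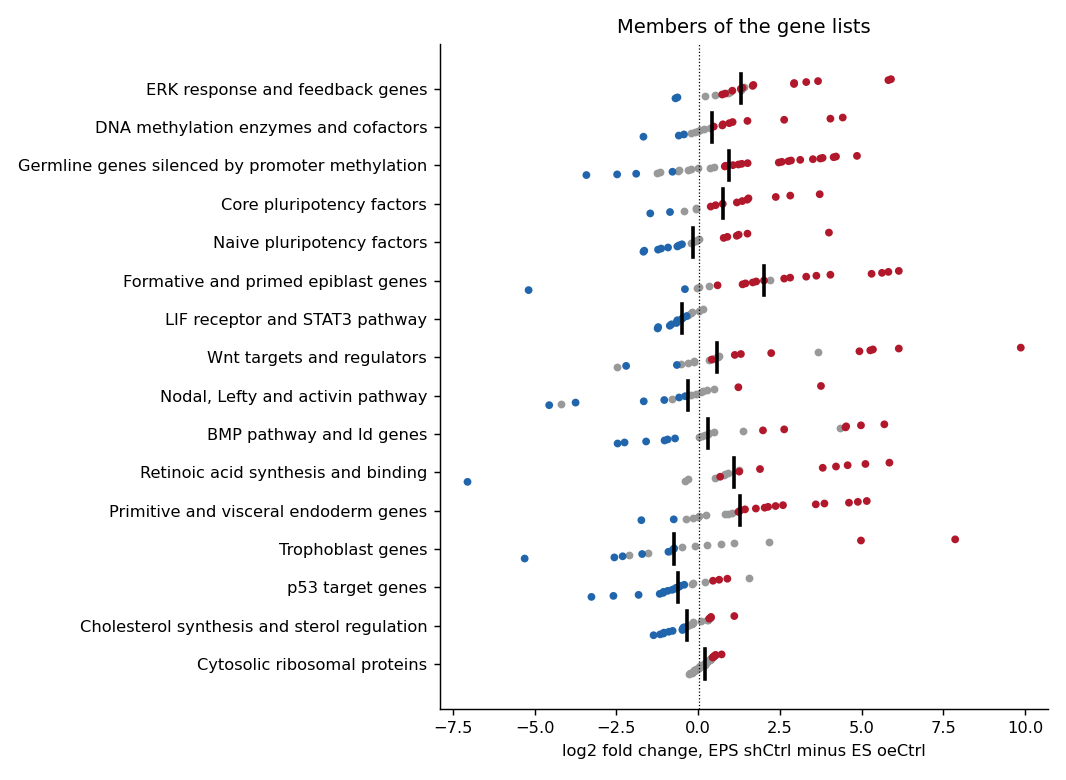
The log2 fold change of EPS shCtrl over ES oeCtrl for each tested member of 16 gene lists; red points were called higher, blue lower and grey not called, black bars are list medians and the dotted line is the median of all genes (0.01). The ERK (1.31) and formative (2.02) medians lie to the right and the p53 median (-0.63) to the left.

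Primitive and visceral endoderm genes, of the yolk sac lineages, were higher in EPS shCtrl cells, at low to middling levels. Gata6, a primitive endoderm transcription factor, stood at 25.6 and 13.3 CPM in shCtrl and 0.550 and 0.719 CPM in oeCtrl libraries (log2 4.89 ± 0.50, adjusted p = 1.09e-06). Gata4, its relative, stood at 14.6 and 14.2 against 11.3 and 12.5 CPM and was not called (log2 0.25 ± 0.23, adjusted p = 0.419). Cubn, an endocytic receptor of visceral endoderm, rose by 5.16, Lrp2, its partner, by 2.04, and the matrix gene Sparc fell by 1.73. Cubn stood at 6.55 and 10.8 against 0.206 and 0.261 CPM, near the floor in the oeCtrl libraries, so the size of its rise is uncertain. Of 24 tested members 13 rose and 2 fell (median log2 1.28). The 6 defining markers summed to 60.3 and 44.0 CPM in shCtrl and 14.2 and 15.4 CPM in oeCtrl libraries; their part in the other results was not tested.

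Trophoblast genes were more often lower, with 2 of 18 higher and 7 lower (median log2 -0.75). Cdx2, a trophectoderm transcription factor, stood at 0.441 and 3.12 CPM in shCtrl and 0 in both oeCtrl libraries, at least 8.84-fold higher. That bound rests on replicate 2 (53 counts): from replicate 1 alone (7 counts) it is 2.19-fold. Krt7, a trophoblast keratin, stood at 0.441 and 0.0588 against 10.6 and 9.02 CPM (log2 -5.30 ± 0.59, adjusted p = 2.59e-06). Tfap2a and Tead4, transcription factors of this lineage, fell by 2.56 and 1.71. The 6 defining trophoblast markers summed to 25.9 and 24.9 CPM in shCtrl and 18.1 and 20.1 CPM in oeCtrl libraries. Most of this was Eomes, at 24.6 and 21.3 against 17.7 and 19.6 CPM. Hand1 stood at 0.819 and 0.470 against 0.138 and 0.131 CPM. Tpbpa was at 0 in all 4 libraries. Elf5 was at 0 in both shCtrl libraries and at the floor of 3 counts in both oeCtrl libraries. Of 18 neural genes 11 rose and 2 fell: the neuronal RNA-binding Elavl3 rose by 4.95, and Nes, which encodes nestin, fell by 2.20.

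Targets of p53, which restrains growth after stress, were lower in EPS shCtrl cells. Cdkn1a, a cell cycle inhibitor, stood at 80.6 and 102 CPM in shCtrl and 332 and 308 CPM in oeCtrl libraries (log2 -1.82 ± 0.15, adjusted p = 7.41e-08). The antiproliferative gene Btg2 fell by 2.59 and the secreted factor Gdf15 by 3.26. Of 20 members 3 rose and 13 fell, with a median log2 of -0.63. Among glycolysis genes 8 of 25 rose and 7 fell: Pdk1, which holds back pyruvate dehydrogenase, rose by 2.42, and Ldhb, a lactate dehydrogenase subunit, fell by 2.59. The glycolysis genes called lower numbered 4 without ES oeCtrl replicate 2 or with only the 4 libraries in the fit. Of 23 cholesterol synthesis genes 4 rose and 10 fell (6 without EPS shCtrl replicate 2), and the reductase gene Dhcr7 fell by 1.16. Gldc, which cleaves glycine, stood at 369 and 446 against 55.5 and 38.2 CPM (log2 3.11 ± 0.16, adjusted p = 6.84e-10).

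Among imprinted genes, expressed from one parental allele, 12 of 31 rose and 5 fell (median log2 0.52). Grb10, a growth inhibitor, stood at 488 and 352 CPM in shCtrl and 38.8 and 32.5 CPM in oeCtrl libraries (log2 3.54 ± 0.19, adjusted p = 8.93e-10). Plagl1, a zinc finger gene, fell by 2.05. In the polycomb complex PRC2, the methyltransferase gene Ezh2 fell by 0.71 and its core partner Eed rose by 0.61. Of 11 PRC2 genes 4 rose and 5 fell (3 without EPS shCtrl replicate 2 or either ES oeCtrl replicate).

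The remaining lists moved less or in both directions, and the mitochondrial genome list had a median log2 of -0.73. Of 16 Notch genes 5 rose and 3 fell, with the ligand gene Jag2 higher by 1.39 and the receptor gene Notch3 at a log2 of -1.58. Of 12 mesendoderm genes 4 rose and 2 fell. T, Mesp2, Evx1 and Sox17 rose by 4.93, 4.26, 3.76 and 2.60, at 2.02 to 10.0 CPM in the shCtrl libraries. In the oeCtrl libraries T stood at 0.413 and 0 CPM, Mesp2 at 0.344 and 0.0654 CPM and Evx1 at 0.275 and 0.131 CPM. These levels are near the floor, so the sizes of these rises are uncertain. Sox17 stood at 0.963 and 0.523 CPM there. Gsc, an organizer transcription factor, fell by 3.74. Of 22 interferon and antigen presentation genes 6 rose and 7 fell; Ifitm1 and Ifitm3, membrane proteins that block viral entry, fell by 1.80 and 1.35. In the YY1 and INO80 chromatin remodelling list 6 of 15 rose (3 without ES oeCtrl replicate 1), among them the deubiquitinase gene Uchl5 (log2 0.85). In the ribosomal protein list 6 of 38 were called higher, a share below the 19.7% over all genes. That count was 0 without EPS shCtrl replicate 2 or ES oeCtrl replicate 2, 1 without ES oeCtrl replicate 1, and 17 with the replicate block. Mitotic genes (3 of 24 higher, 4 lower), nuclear oxidative phosphorylation genes (8 of 35 higher, 4 lower) and one-carbon genes (5 of 21 higher, 4 lower) were split. On the mitochondrial genome 1 of 11 rose and 5 fell (3 without ES oeCtrl replicate 1). Oxidative phosphorylation genes called higher numbered 4 without EPS shCtrl replicate 2 and 2 without ES oeCtrl replicate 2, and interferon genes called higher 3 without ES oeCtrl replicate 2. For the lists with 0 calls in a direction (fibroblast markers, ribosomal proteins and the INO80 list lower, LIF and Y-linked genes higher), edgeR also gave 0 members at an unadjusted p under 0.05 in that direction, and DESeq2 called 0.

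Unnamed clones, Gm, Rik and LOC models and pseudogenes were left out when genes were ranked by steepness. Among the other called genes without overlap and with a mean of at least 5 CPM, the steepest rise was in Ccnd2, cyclin D2. It stood at 37.9 and 42.4 CPM in shCtrl and 0.138 and 0 CPM in oeCtrl libraries (log2 9.05 ± 1.01, adjusted p = 2.35e-05). Its ratio of counts was 599.9, with a 95% exact counting interval of 166 to 4959. That interval covers counting error only, not the spread between libraries. Porcn, which modifies Wnt ligands for secretion, stood at 109 and 130 against 1.58 and 2.03 CPM (log2 6.03 ± 0.27, adjusted p = 1.54e-10). Chit1, a chitinase, had the steepest fall, at 0.189 and 0.0588 against 28.3 and 26.9 CPM (log2 -7.75 ± 0.50, adjusted p = 4.11e-09), followed by the channel gene Pkd2l1 (log2 -7.27 ± 0.52).

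Chromosomes 6 and 8 stood below the others. The median log2 was -0.42 on chromosome 6, with 87 genes higher and 348 lower of 768, and -0.44 on chromosome 8, with 70 higher and 399 lower of 820. Over the other autosomes the median was 0.04. In the lines without a construct the medians were -0.29 on chromosome 6 and -0.28 on chromosome 8. There the other autosomes had a median of 0.01. Chromosome 6 held 4.59% and 4.60% of gene counts in shCtrl and 6.15% and 6.27% in oeCtrl libraries, and 4.62% to 4.66% in EPS and 5.46% to 5.51% in ES libraries without a construct. Named genes on chromosome 6 include Nanog, Ldhb, Ezh2, Ccnd2, Stra8, Tead4, Dppa3, Halr1 and Evx1, and those on chromosome 8 include Gdf15, Sfrp1, Sall1 and Mmp2. The part of the chromosome in their values was not tested. Of the 8 Y-linked genes listed, 6 were tested and all fell, and the list summed to at most 3.28 CPM in shCtrl and to 111 and 131 CPM in oeCtrl libraries, against 14.2 to 25.3 CPM in EPS and 63.6 to 76.9 CPM in ES libraries. Eif2s3y, a Y-linked translation factor, stood at 0.315 and 0.764 against 37.8 and 46.8 CPM.

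**Figure D4:**
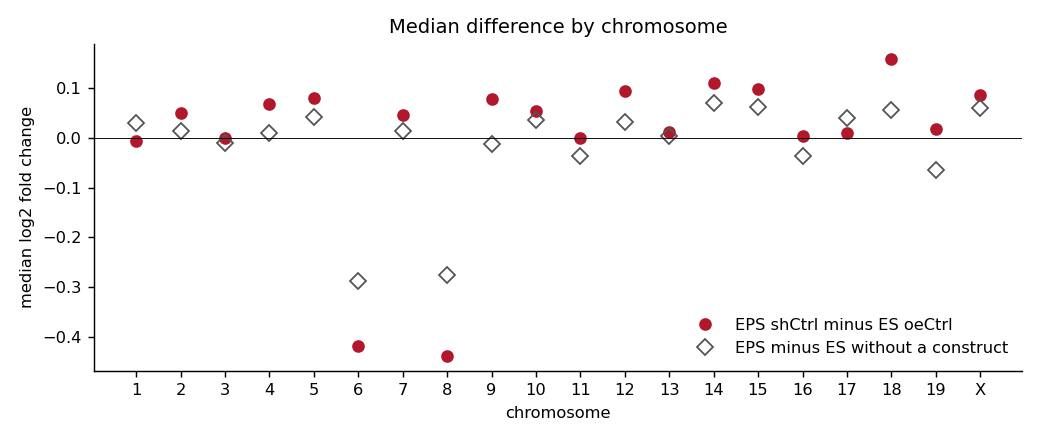
Median log2 fold change of the tested genes on each chromosome except Y, for EPS shCtrl minus ES oeCtrl (filled circles) and for EPS minus ES without a construct (open diamonds). Chromosomes 6 (-0.42) and 8 (-0.44) lie below the rest in EPS shCtrl minus ES oeCtrl. They also do so in EPS minus ES without a construct (-0.29 and -0.28).

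The EPS and ES lines without a construct, with 3 libraries each, share no library with these groups and allow the same comparison. There 5033 genes (30.6%) were called. Of the 6646 genes called here, 2505 (37.7%) were called in the same direction there, which is 49.8% of the calls there, and 331 were called in the opposite direction. The median absolute log2 was 0.51 here and 0.34 there. The difference between the pairs of lines was itself called for 3313 genes (20.2%), positive for 9.75% of those tested and negative for 10.4%, and for 2503 of the 3313 the absolute value was larger here. Without ES oeCtrl replicate 1 it was called for 1922. Of 23 tested fibroblast markers, 5 were called higher and 0 lower here (median log2 0.73, or 0.10 with genes at 0 in a group set to their bounds), against a median of -1.31 there. The count called higher was 2 without ES oeCtrl replicate 2 and 3 without any 1 of the other 3 libraries compared. The part of these markers in the difference was not tested.

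For several ERK, methylation and pluripotency genes the values stood side by side. The log2 difference here and there was 5.90 and 3.94 for Spry4, 3.67 and 4.18 for Egr1, and 4.05 and 1.82 for Dnmt3a. It was 3.72 and 2.47 for Lin28a and -0.86 and -0.78 for Nanog. The difference between the pairs was called for Spry4 (adjusted p = 0.00167), Dnmt3a (adjusted p = 2.68e-06) and Lin28a (adjusted p = 0.00519), and not for Egr1 (adjusted p = 0.488) or Nanog (adjusted p = 0.766). Etv4 had log2 values of 3.31 and 0.08, and Myc of 5.82 and 0.88, with the difference called for each (adjusted p = 5.20e-08 for both). The difference between pairs was called for 14 of 24 tested endoderm genes, all more positive here. It was called for 12 of 20 tested p53 targets, all more negative here. Over all genes tested it was positive for 9.75% and negative for 10.4%. The endoderm list had a median log2 of -0.66 in the lines without a construct, with 2 members called higher and 10 lower. The part of fibroblast RNA in these values was not tested. Tet2 was called in opposite directions, at 1.51 here and -1.54 there.

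**Figure D5:**
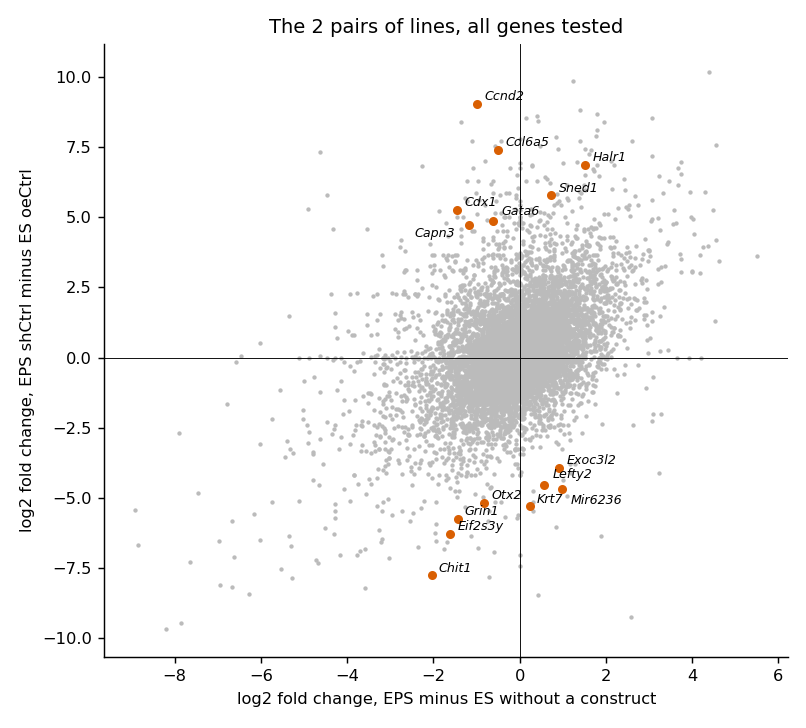
The log2 fold change of EPS shCtrl over ES oeCtrl (vertical axis) against that of EPS over ES without a construct (horizontal axis) for the 16440 genes tested; orange points are named genes among those with the most positive or most negative difference between the pairs by the level rule. Ccnd2 and Col6a5 sit high above the cloud and Chit1 and Krt7 below it.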

How the data were processed

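The authors deposited 1 table of raw counts per RNA library over 47517 gene symbols. The submitters' processing notes name CASAVA, Bowtie2 2.3.2 and the builds mm10 and GRCm38.p6, with no roles; the counting tool and strand setting are not given in the sources used here. Summary lines were dropped; reads on no feature were 5.79% to 8.44% of each of the 4 libraries' table totals. edgeR 4.0.16 in R 4.3.3 fitted the 14 undifferentiated libraries in 6 groups (TMM, filterByExpr, robust quasi-likelihood F-test, Benjamini-Hochberg over 16440 genes, threshold 0.05); the code was tested on simulated data. DESeq2 1.42.0 was an alternative. The 8 tables of differentiated cells were not used.

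Levels are CPM of plain count totals, whereas fold changes use TMM scaling. CPM scaled by TMM was tried after the data were seen and then set aside, because the naming rule had already been applied on plain CPM; its effect is given under the processing alternatives.

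Named genes are the 12 steepest in each direction, of those called with a mean of at least 5 CPM and groups without overlap, the up to 5 called members of smallest p in each of 31 lists, 20 genes given whether called or not, and the 8 most positive and 8 most negative differences between the pairs. A few genes that these rules name are not reported here. Members and lists were chosen with earlier results of these data known.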

Additional observations from a re-analysis of the deposited data

Results flagged for a closer look

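For the genes below, the EPS minus ES difference was tested between the construct control lines and the lines without a construct, and its adjusted p (edgeR) was under 0.05. Values are differences of log2 fold changes between the pairs. Among the most positive by the level rule were Ccnd2 (10.0), Col6a5 (7.90), Cdx1 (6.72), Capn3 (5.91), Gata6 (5.51), Halr1 (5.36) and Sned1 (5.06). Most negative were Chit1 (-5.71), Mir6236 (-5.67), Krt7 (-5.54), Lefty2 (-5.11), Exoc3l2 (-4.84), Eif2s3y (-4.66), Otx2 (-4.36) and Grin1 (-4.31).

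Cdx1, named above, was called in opposite directions in the pairs (log2 5.27 here and -1.45 there). Other named genes were added after their values were seen, because they too were called in opposite directions. Tet2 (3.05), Loxl1 (4.92), Fbn1 (4.37), Pdgfrb (2.84) and Mmp2 (2.32) were higher here and lower there; the last 4 are fibroblast markers, whose sums differ between the pairs. The call here was lost without any 1 of the 4 libraries for Fbn1 (adjusted p = 0.0759 to 0.191) and Mmp2 (adjusted p = 0.0919 to 0.196), and with no filter on low counts (adjusted p = 0.135 and 0.155). Pdgfrb was no longer called when EPS shCtrl replicate 1 (adjusted p = 0.271) or ES oeCtrl replicate 2 (adjusted p = 0.132) was left out. Ldhb (-3.52), Notch3 (-2.15), Phf19 (-2.07) and Eda2r (-1.65) were lower here and higher there. The call for Halr1 was lost without ES replicate 1 (adjusted p = 0.0754), and that for Mir6236 with no filter on low counts (adjusted p = 0.0510) and without EPS shCtrl replicate 1 (adjusted p = 0.0779), EPS shCtrl replicate 2 (adjusted p = 0.0544) or ES oeCtrl replicate 1 (adjusted p = 0.0706).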

How the results depend on the processing

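Over the alternatives that keep all replicates, 5768 (only the 4 libraries in the fit) to 7892 (replicate block) genes were called, and 4460 to 6145 with 1 replicate left out. Genes called higher ranged from 2001 to 2933 with 1 replicate left out, and called differences between the pairs from 1922 to 3861. No result reversed. The replicate block gave 4806 called differences between the pairs; replicate numbers were not taken as pairs in the construct lines, where there are 2 (correlation of deviations 0.103). In the lines without a construct, all 3 same-numbered pairs deviated together (0.261 to 0.562), and the block gave 6392 calls against 5033.

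With 1 replicate left out, members called higher ranged from 2 to 3 for fibroblast markers, 2 to 8 for oxidative phosphorylation, 0 to 6 for ribosomal proteins, 3 to 5 for interferon genes and 3 to 6 for the INO80 list, and members called lower from 4 to 6 for glycolysis, 3 to 4 for the mitochondrial genome, 6 to 12 for cholesterol synthesis and 3 to 4 for PRC2. With only the 4 libraries in the fit, 4 Wnt genes and 10 ribosomal protein genes were called higher and 4 glycolysis genes lower. Ribosomal protein genes called higher numbered 11 with no filter and 17 with the replicate block. Y-linked genes called lower were 0 where sex-linked genes were left out, by construction. For single genes, 63 of the calls under an alternative were lost and 4 gained, and 2136 kept their direction and side of the threshold. Scaling CPM by TMM sizes, an alternative added after the data were seen, replaced Krt7 in both naming rules (by Xlr3b and Copz2) and left 271 shCtrl and 12 oeCtrl genes at least 2-fold apart between replicates. Causes were not tested.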
